A study of Nannochloropsis oceanica with 18 samples.

Results

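Lysine crotonylation (Kcr) and acetylation of histone H3 lysine 27 (H3K27ac) were compared in cells of the oleaginous marine microalga Nannochloropsis oceanica, strain IMET1, that had spent 1 day in nitrogen-free medium (N1). The comparison was made on 4 of the 18 libraries of the series, 2 for each mark, over all 3803 regions of the deposited tables, which lie on 30 chromosomes. The other libraries were H3K36me2 in N1, and all of these marks in nitrogen-replete cells taken at the logarithmic phase (C0) and in cells after 2 days in nitrogen-free medium (N2). C0 and N2, with 4 libraries of the acyl marks each, were used to see whether a difference found in N1 was also present before or later. N1 and N2 cells had been washed, transferred and placed under weaker light than the C0 culture, so that loss of nitrogen, transfer and light cannot be told apart in a comparison with C0. Cultures were sampled in bulk, and fewer cells carrying a mark and less of the mark per cell cannot be told apart.

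Both marks are acyl groups placed on lysines from the corresponding acyl-CoA, acetyl-CoA for acetylation and crotonyl-CoA for crotonylation. In animals, yeast and plants both are found mainly at active promoters and other open chromatin, and in animals the acetyltransferase p300 can place either of them. Loss of nitrogen is known to turn carbon flow in this alga from growth to storage lipid, which draws on acetyl-CoA. H3K27ac is defined at a single residue, whereas an antibody to Kcr can bind any crotonylated lysine, and the labels name no residue for it. Labels and methods of the study name different antibodies, and which antibodies were used is not known here.

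The level of a mark in a region was taken as the ratio of the deposited coverage (pileup) to the local background (lambda) given beside it. The difference between the marks was computed as the log2 level of Kcr minus that of H3K27ac, on 2 scales. The enrichment scale kept the ratios as they were, so that its difference is log2 of Kcr over H3K27ac. On the common scale the log2 values of each library were set to equal median and SD over the regions. The marks were thus compared there by their relative levels, in rescaled log2 units that are not a log2 ratio of the marks. Calls were made with limma where p, after Benjamini-Hochberg adjustment over every region tested, was under 0.05. The labels do not say that the libraries of a pair came from separate cultures, and p-values therefore measure only the spread between libraries.

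H3K27ac stood out more strongly from its background than Kcr. The median ratio over the 3803 regions was 2.30 and 2.23 in H3K27ac libraries 1 and 2, and 1.69 and 1.68 in Kcr libraries 1 and 2. The highest ratio of any region was 9.29 and 9.69 for H3K27ac, and 5.33 and 5.36 for Kcr. At the low end the order was the other way round, since the 5th percentile was 0.325 and 0.321 for H3K27ac and 0.615 and 0.621 for Kcr. Kcr levels thus ran over a narrower range in both directions, with an SD of log2 enrichment over regions of 0.711 and 0.703, against 1.25 and 1.22 for H3K27ac. The inverse of the smallest step of the pileup was 1.857 and 2.071 M for H3K27ac, and 3.717 and 3.23 M for Kcr. These values match the valid read pairs that the study lists for the same libraries, so that the Kcr libraries were the deeper ones. In C0 the study lists more valid pairs for H3K27ac than for Kcr. The order of depth thus turned between C0 and N1, along with any change of the marks. Its part in such a change was not tested. The libraries of a pair were close, with an SD of their log2 difference over regions of 0.249 for H3K27ac and 0.182 for Kcr. When pileups were expressed in fragments, chi-square over its degrees of freedom was 0.773 and 0.724, less than for independent counts.

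The marks were found at the same regions. Across the 3803 regions, log2 enrichment of H3K27ac and Kcr correlated with r = 0.940 to 0.942 over the 4 pairs of libraries. Regions are not independent replicates, and the background values of the marks were themselves nearly shared, with r of at least 0.991. A mean ratio of at least 2 was reached by both marks in 1228 regions (32.3%), which had a median width of 6919 bp. Both marks were under 1 in 1031 regions (27.1%), with a median width of 1427 bp. H3K27ac reached 2 with Kcr between 1 and 2 in 939 regions (24.7%), whereas Kcr reached 2 with H3K27ac between 1 and 2 in 9 regions (0.237%). No region had a mean ratio of at least 2 for one mark and under 1 for the other, in either direction. The marks therefore parted by degree, and at no region by presence of one and absence of the other at these limits.

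**Figure D1:**
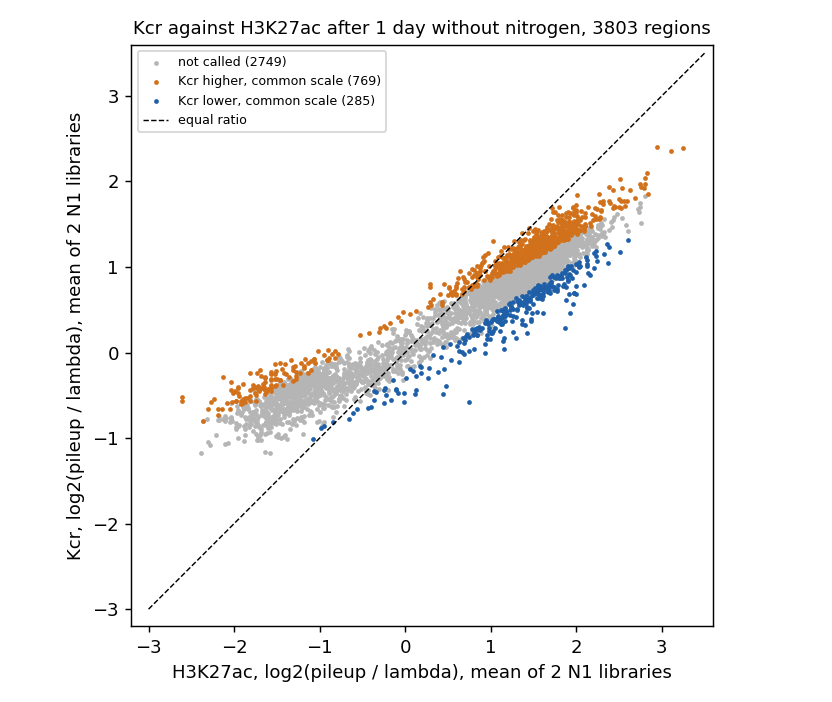
Mean log2 ratio of pileup to lambda (0.5 added to each) of the 2 H3K27ac libraries (x axis) and of the 2 Kcr libraries (y axis) in N1, 1 point per region, with the 3803 regions coloured by the call on the common scale. The cloud crosses the dashed line of equal ratios and is flatter than it: Kcr is above H3K27ac among the lowest regions and below it among the highest ones.

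On the enrichment scale, Kcr was called lower than H3K27ac in 2191 regions (57.6%) and higher in 769 (20.2%), with a median difference of -0.33. The direction followed the level of the marks. Among the 1032 regions with an H3K27ac ratio under 1 in C0 the median difference was 0.71, and among the 602 with a ratio of 4 or more it was -0.56. Once regions in which neither mark reached a mean ratio of 1.5 were left out, 10 regions were called higher and 2179 lower. With pileup alone 435 were called higher and 2641 lower, and with libraries set to equal median but their spread kept, 1381 and 636.

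On the common scale, Kcr was called higher than H3K27ac in 769 regions (20.2%) and lower in 285 (7.49%), with a median difference of 0.11 over all regions and a median SE of 0.109. The count of 769 is the same as on the enrichment scale, but the regions are not. Only 134 were called higher on both scales, and 443 of the 769 regions called higher on the common scale were called lower on the enrichment scale. Of the 285 regions called lower on the common scale, 262 were also called lower on the enrichment scale and 0 were called higher. The excess of higher calls depended on the scale, since quantile normalisation gave 282 higher and 318 lower. These included 278 of the 769 and 218 of the 285. Without H3K27ac library 1 or 2 the total fell from 1054 to 566 or 593 regions, with 434 and 467 of them higher. Differences were small on this scale, and 4 regions in each direction were called with a difference of at least 1 in its rescaled units. On the enrichment scale 214 higher and 59 lower regions were called with a difference of at least 1.

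The 285 regions in which Kcr was relatively low had a median ratio of 2.57 for H3K27ac and 1.44 for Kcr. The 769 regions in which Kcr was relatively high had medians of 2.79 and 2.30. In both sets H3K27ac was thus above its median over all regions, and the sets differed more in Kcr. In the 218 and the 278 regions also called with quantile normalisation, H3K27ac medians were 2.83 and 2.32, and Kcr medians 1.55 and 2.19. Both marks differed there, so that the contrast depended on the scaling. The sets of 285 and 769 regions were chosen on the difference of the marks, and a contrast between them is built in. The C0 and N2 libraries entered the choice of these sets only through the estimate of the spread, which all groups shared, and not through the N1 difference. In C0, 119 of the 285 (41.8%) were also called lower, against 18.0% of all regions, and in N2 111 (38.9%), against 23.7%. In 72 of the 285 regions Kcr was called relatively low in all 3 conditions. How many of all regions were called lower in both C0 and N2 was not counted, so that this number has no share beside it. The median difference of the 285 regions was -0.42 in N1, -0.23 in C0 and -0.25 in N2.

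Of the 769 regions with relatively high Kcr, 77 (10%) were also called higher in C0, against 7.84% of all regions, and 114 (14.8%) were called lower, against 18.0%. In N2 68 (8.84%) were called higher, against 6.39%, and 186 (24.2%) were called lower, against 23.7%. These shares lay near those of all regions. Among the 278 that were also called with quantile normalisation, however, 16.2% were called higher in C0 and 18.0% in N2. The median common-scale difference of all 769 was 0.42 in N1 and lay near 0 in C0 and at -0.12 in N2. For the 278 it was 0.53 in N1, 0.06 in C0 and 0.01 in N2. With quantile normalisation, the medians of these 769 regions were 0.11 in C0 and 0.09 in N2. Over all 3803 regions the N1 difference correlated with that in C0 with r = 0.185 and with that in N2 with r = 0.0347, and on the quantile scale with r = 0.345 and 0.301. How far these regions kept their order between conditions thus depended on the scaling.

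**Figure D2:**
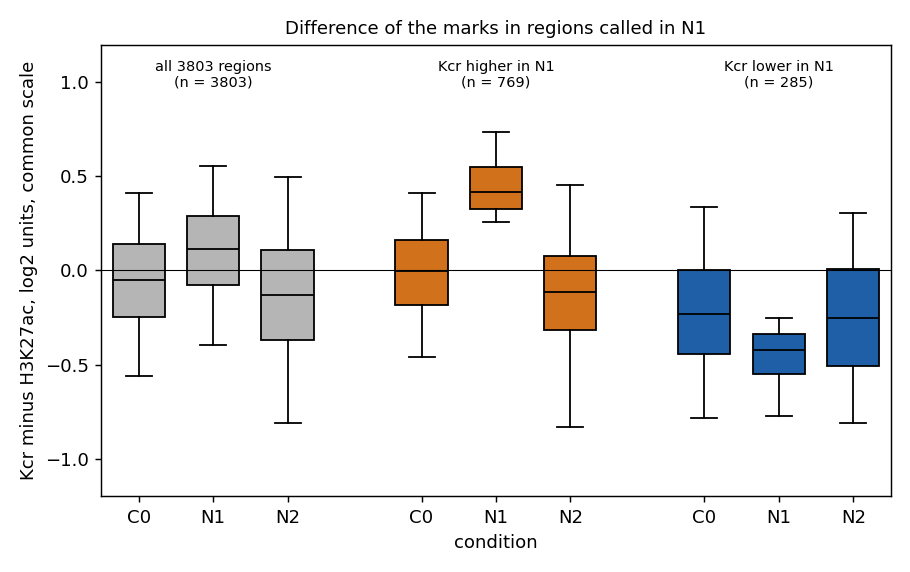
Difference of Kcr minus H3K27ac on the common scale (y axis, rescaled log2 units) in C0, N1 and N2. Groups are all 3803 regions, the 769 called higher and the 285 called lower in N1. Boxes give quartiles and medians, whiskers the 5th and 95th percentiles. Regions called lower in N1 keep medians of -0.23 and -0.25 in C0 and N2, whereas the medians of those called higher lie near or under 0 in both.

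The rule for named regions gave 10 in which Kcr was lowest against H3K27ac on the common scale, among those with a mean ratio of at least 2 for 1 of the marks, the same direction on the enrichment scale and no overlap between libraries. Because they were chosen for their N1 difference, that value is a description, and their C0 and N2 differences come from other libraries. The lowest was on chromosome 25 (594033 to 596220, 2187 bp), where the ratio was 3.96 and 3.36 in H3K27ac libraries 1 and 2, and 1.18 and 1.26 in the Kcr libraries. H3K27ac was thus strong where Kcr was only just above background, and the difference was -1.18 ± 0.09 (SE) on the common scale. In C0 the same region had H3K27ac ratios of 3.54 and 3.82 and Kcr ratios of 2.90 and 2.78. In N2 it had 2.80 and 2.86 for H3K27ac and 1.87 for Kcr, whose deposited N2 libraries hold identical values and were entered once. The common-scale difference was -0.23 in C0 and -0.65 in N2, the latter with an adjusted p of 0.000267.

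The region on chromosome 12 (134422 to 136717, 2295 bp) had N1 ratios of 3.91 and 3.72 for H3K27ac and 1.4 and 1.35 for Kcr. Here the gap was present at all times, with common-scale differences of -0.61 in C0, -0.995 ± 0.091 (SE) in N1 and -0.74 in N2. The C0 and N2 values had adjusted p-values of 0.000101 and 7.1e-05. A wide region on chromosome 7 (689568 to 699546, 9978 bp) had 4.14 and 3.68 for H3K27ac and 1.55 and 1.42 for Kcr, a difference of -0.87 ± 0.09. Its H3K27ac ratios in C0 were 2.66 and 2.68 and its Kcr ratios 2.05 and 2.13. H3K27ac was thus higher and Kcr lower in N1 than before. Over all regions the median Kcr ratio was also lower in N1, at 1.69 against 2.54 in C0. The median H3K27ac ratio was 2.26 against 2.55. The lower Kcr was therefore not particular to this region. A second region of that chromosome (164773 to 170242, 5469 bp) had 2.54 and 2.75 for H3K27ac and 1.21 and 1.29 for Kcr.

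A pair of these regions lay close together on chromosome 2. The first (1450707 to 1452069, 1362 bp) had N1 ratios of 2.17 and 2.29 for H3K27ac and 1.07 and 1.19 for Kcr, and the second (1456219 to 1457323, 1104 bp) had 2.31 and 2.62 against 1.07 and 1.19. Both were already parted in C0, where the first had H3K27ac ratios of 4.18 and 4.09 and Kcr ratios of 2.11 and 2.27. Chromosome 19 held a further pair. One (45485 to 56145, 10660 bp) had 2.50 and 2.29 for H3K27ac and 1.09 and 1.28 for Kcr, and the other (463211 to 464905, 1694 bp) had 2.16 and 2.26 against 1.01 and 1.18. The latter was weakly marked in C0, with ratios of 1.08 and 1.13 for H3K27ac and 0.907 and 0.873 for Kcr. The remaining ones were on chromosome 13 (987105 to 988796, 1691 bp), with 2.80 and 2.58 against 1.15 and 1.2, and on chromosome 21 (74947 to 77610, 2663 bp), with 2.34 and 2.12 against 1.08 and 0.987.

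Differences of these 10 regions ran from -1.18 to -0.77 on the common scale, from -1.58 to -0.98 on the enrichment scale and from -1.13 to -0.64 with quantile normalisation. All 10 were negative in C0 and in N2. Most regions were so, as only 1615 of all 3803 were positive in C0 and 1346 in N2. In each condition 8 of the 10 were called, against 18.0% and 23.7% of all regions called lower there. The 10 passed the filter on the ratio through H3K27ac, so that all regions are not a matched comparison. In 4 of the 10 the mean H3K36me2 ratio in N1 was under 0.5, a level found in 174 of the 3803 regions (4.58%). H3K36me2 is a methyl mark associated with transcribed genes in yeast and plants. The pattern extended to the whole set, as 29 of the 285 regions with relatively low Kcr (10.2%) had H3K36me2 under 0.5, against 22 of the 769 with relatively high Kcr (2.86%). With quantile normalisation these shares were 7.55% and 3.55%. The link is a description, and its source was not tested.

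**Figure D3:**
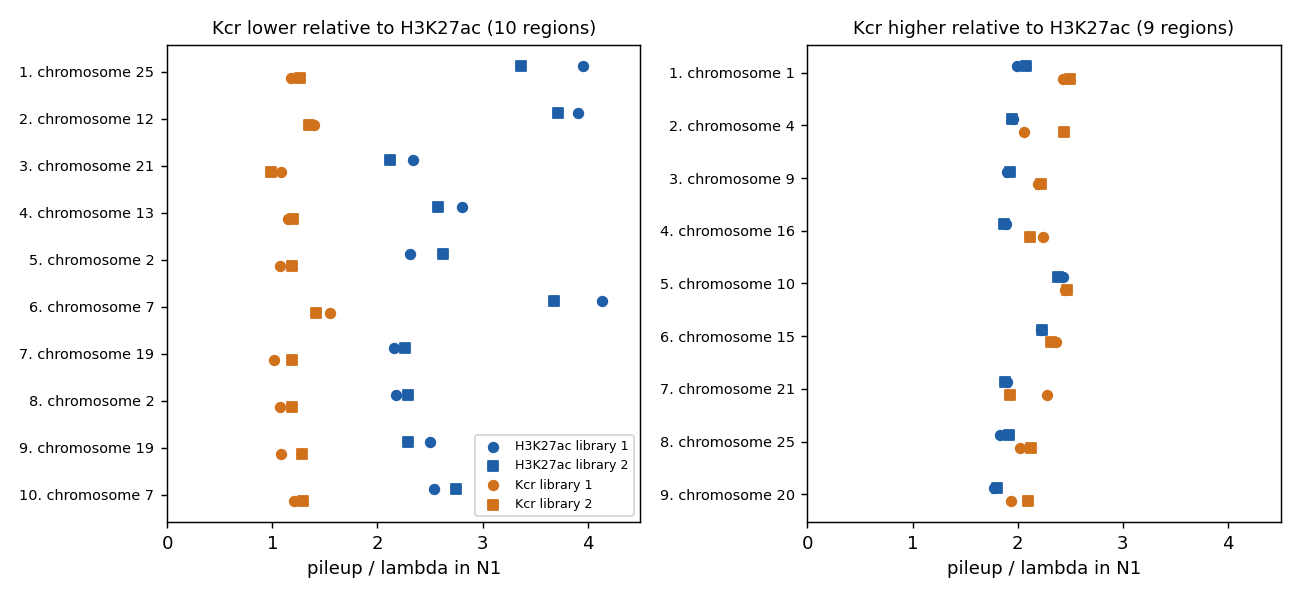
Ratio of pileup to lambda in N1 (x axis) of each H3K27ac (blue) and Kcr (orange) library in the 10 named regions with relatively low Kcr (left) and the 9 with relatively high Kcr (right), 1 row per region in order of the difference. On the left the marks are apart by a wide gap, with H3K27ac from 2.12 to 4.14 and Kcr from 0.987 to 1.55, while on the right they lie close, with H3K27ac from 1.78 to 2.43 and Kcr from 1.93 to 2.50.

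On both scales the difference had the same sign in 193 regions called higher and 281 called lower on the common scale. With a mean ratio of at least 2 for 1 of the marks and no overlap between libraries, 9 regions with relatively high Kcr and 204 with relatively low Kcr were left. The filter itself favoured relatively low Kcr. On the enrichment scale 10 regions were called higher and 2179 lower among those where a mark reached a mean ratio of 1.5. The foremost of the 9 was on chromosome 1 (1113265 to 1121069, 7804 bp), with N1 ratios of 1.99 and 2.08 for H3K27ac and 2.43 and 2.50 for Kcr, and a common-scale difference of 0.87 ± 0.10 (SE). Its C0 ratios were 2.66 and 2.29 for H3K27ac and 2.61 and 2.69 for Kcr, so that Kcr stayed at a like level while H3K27ac was lower in N1. On chromosome 25 (334312 to 335339, 1027 bp) H3K27ac ratios were 3.78 and 3.64 in C0 and 1.83 and 1.92 in N1, and Kcr ratios 3.0 and 2.89 in C0 and 2.02 and 2.13 in N1. By these ratios H3K27ac was the stronger mark there in C0 and the weaker one in N1. On the enrichment scale limma called the C0 difference (-0.33, adjusted p 0.00964) and not the N1 difference (0.15, adjusted p 0.206). On chromosome 4 (254695 to 257285, 2590 bp) Kcr was above H3K27ac in both, with C0 ratios of 1.73 and 2.13 for H3K27ac and 2.72 and 2.52 for Kcr, and N1 ratios of 1.96 and 1.95 against 2.06 and 2.44.

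The other 6 were on chromosomes 9, 10, 15, 16, 20 and 21 and were between 778 and 4010 bp wide. Common-scale differences of the 9 ran from 0.62 to 0.87. On the enrichment scale they ran from 0.03 to 0.27, and only the region of chromosome 1 was called there. With quantile normalisation all 9 were called, with differences of 0.53 to 0.72. In C0 the difference was positive in 6 of the 9 and called in 2, and in N2 it was positive in 9 and called in 4. Of all regions, 7.84% and 6.39% were called higher there, and 1615 and 1346 of the 3803 were positive. None had a mean H3K36me2 ratio under 0.5.

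The change of the difference from C0 to N1 was tested as an interaction of mark and condition on the common scale. It moved toward Kcr in 758 regions (19.9%) and toward H3K27ac in 152 (4.00%), with a median change of 0.17 over all regions and a median SE of 0.155. With quantile normalisation these counts were 234 and 191, so that the excess in one direction again depended on the scale. Without H3K27ac C0 library 1 or 2 the total fell from 910 to 503 or 514, without H3K27ac N1 library 1 to 575, and without Kcr C0 library 2 to 599. Median H3K27ac ratios over all regions in C0, N1 and N2 were 2.55, 2.26 and 1.88, and median Kcr ratios were 2.54, 1.69 and 1.85. On the enrichment scale the median difference went from 0.01 before the deprivation to -0.33 after 1 day, which is toward H3K27ac. From N1 to N2 the common-scale difference moved toward H3K27ac in 1088 regions (28.6%) and toward Kcr in 160 (4.21%), with a median change of -0.24. With quantile normalisation 92 and 83 were called. The enrichment-scale median rose to -0.09 by day 2, so that its direction was opposite to that of the common scale in each step. The changes from C0 to N1 and from N1 to N2 share the N1 libraries, so that a shift in one direction and back is in part built into them.

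On the common scale the shift toward Kcr was largest at a region of chromosome 9 (107001 to 115486, 8485 bp), with that on chromosome 26 close to it. The region of chromosome 9 also held the highest H3K27ac ratio of any region in N1. H3K27ac ratios were 4.57 and 4.66 in C0, 9.29 and 9.69 in N1, and 7.35 and 8.04 in N2. Kcr ratios were 1.63 and 1.70 in C0, 5.10 and 5.36 in N1, and 2.81 in N2. Both marks were highest in N1, and no library of C0 or N2 overlapped those of N1. The difference moved by 1.74 ± 0.09 (SE) on the common scale, by 1.32 with quantile normalisation and by 0.61 on the enrichment scale, where it was the smallest change of the 5 regions named for this shift.

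A region of chromosome 26 (239273 to 261725, 22452 bp) had a like course of Kcr, with ratios of 2.51 and 2.59 in C0, 5.33 and 5.24 in N1, and 3.12 in N2. Its H3K27ac ratios were 6.05 and 5.90, 7.65 and 7.74, and 8.10 and 8.21 at the same times. H3K27ac was thus higher in N2 than in N1, while Kcr was lower. From C0 to N1 the difference changed by 1.74 ± 0.08 (SE) on the common scale, by 1.06 with quantile normalisation and by 0.69 on the enrichment scale. At chromosome 10 (1236861 to 1244004, 7143 bp), Kcr ratios were 2.44 and 2.41 in C0 and 3.66 and 3.56 in N1, and H3K27ac ratios 5.31 and 5.45 in C0 and 4.59 and 5.04 in N1. The marks here went in opposite directions.

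At the other regions of this kind H3K27ac differed more than Kcr. At chromosome 11 (99710 to 104894, 5184 bp) H3K27ac ratios were 7.42 and 7.49 in C0 and 4.42 and 3.67 in N1, whereas Kcr ratios were 3.72 and 3.72 in C0 and 3.5 and 3.66 in N1. At chromosome 20 (366312 to 380456, 14144 bp) H3K27ac ratios were 5.43 and 5.31 in C0 and 3.26 and 3.33 in N1, and Kcr ratios 2.89 and 3.11 in C0 and 3.28 and 3.20 in N1. A shift toward Kcr was therefore found both with a higher Kcr ratio and with a lower H3K27ac ratio, neither of which was tested on its own. In N2, whose libraries entered the choice of these 5 regions only through the shared estimate of the spread, the common-scale difference lay between -1.51 and -0.64 and was called in 5 of 5, against 23.7% of all regions. In C0 it lay between -1.12 and -0.55 and in N1 between 0.62 and 0.88. With quantile normalisation the N1 differences ran from -0.07 on chromosome 9 to 0.58 and were called in 3 of 5, and the N2 differences ran from -0.39 to 0.15 and were called in 2 of 5, so that the change of sign between conditions was seen on the common scale and not at every one of these regions under the other scaling. On the enrichment scale the N1 differences ran from -0.86 to -0.03, with H3K27ac called the stronger mark in 4 of 5 and the libraries of the marks interleaved on chromosome 20. The change from C0 to N1 ran from 1.42 to 1.74 on the common scale and from 0.61 to 0.83 on the enrichment scale. With quantile normalisation it ran from 1.03 to 1.32 and was called in 5 of 5. All 5 had a mean H3K27ac ratio of 4 or more in C0. Of the 602 regions at that level, 64.1% were called toward Kcr on the common scale, with a median change of 0.43. Their median difference was -0.31 before the deprivation and -0.33 after 2 days of it. Part of this course was thus shared by strongly marked regions, and the share of all regions called in N2 is not a matched comparison.

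The largest shift toward H3K27ac among named regions on the common scale was found on chromosome 22 (60498 to 61444, 946 bp). Kcr ratios were 2.60 and 2.68 in C0, 0.625 and 0.738 in N1, and 1.28 in N2. H3K27ac ratios were 1.27 and 1.27, 1.02 and 0.784, and 0.862 and 0.962. Kcr was thus the only mark above 2 in C0 and was under background in N1, a change of the difference of -1.50 ± 0.22 (SE) on the common scale with an adjusted p of 0.000119. On chromosome 14 (470024 to 470932, 908 bp) Kcr ratios were 2.08 and 1.99 in C0 and 0.961 and 1.07 in N1, while H3K27ac ratios were 1.28 and 1.15 in C0 and 1.78 and 1.58 in N1. On chromosome 18 (248280 to 250177, 1897 bp) Kcr ratios were 2.99 and 3.30 in C0 and 1.41 and 1.21 in N1, while H3K27ac ratios were 2.43 and 1.98 in C0 and 2.76 and 2.39 in N1. Kcr and H3K27ac changed places as the stronger mark at both.

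The region of chromosome 8 (469762 to 471102, 1340 bp) had Kcr ratios of 2.34 and 2.69 in C0 and 1.13 and 0.993 in N1, with H3K27ac ratios of 1.53 and 1.30 in C0 and 1.26 and 1.46 in N1. The last of these 5 was the region of chromosome 25 (594033 to 596220) that also showed the lowest relative Kcr in N1. There the N1 libraries of H3K27ac lay on either side of those of C0, and Kcr alone was lower. The 5 regions were between 908 and 2187 bp wide, whereas those that moved most toward Kcr were between 5184 and 22452 bp wide. Their changes ran from -1.50 to -0.93 on the common scale, from -1.50 to -1.19 on the enrichment scale and from -1.89 to -0.90 with quantile normalisation.

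**Figure D4:**
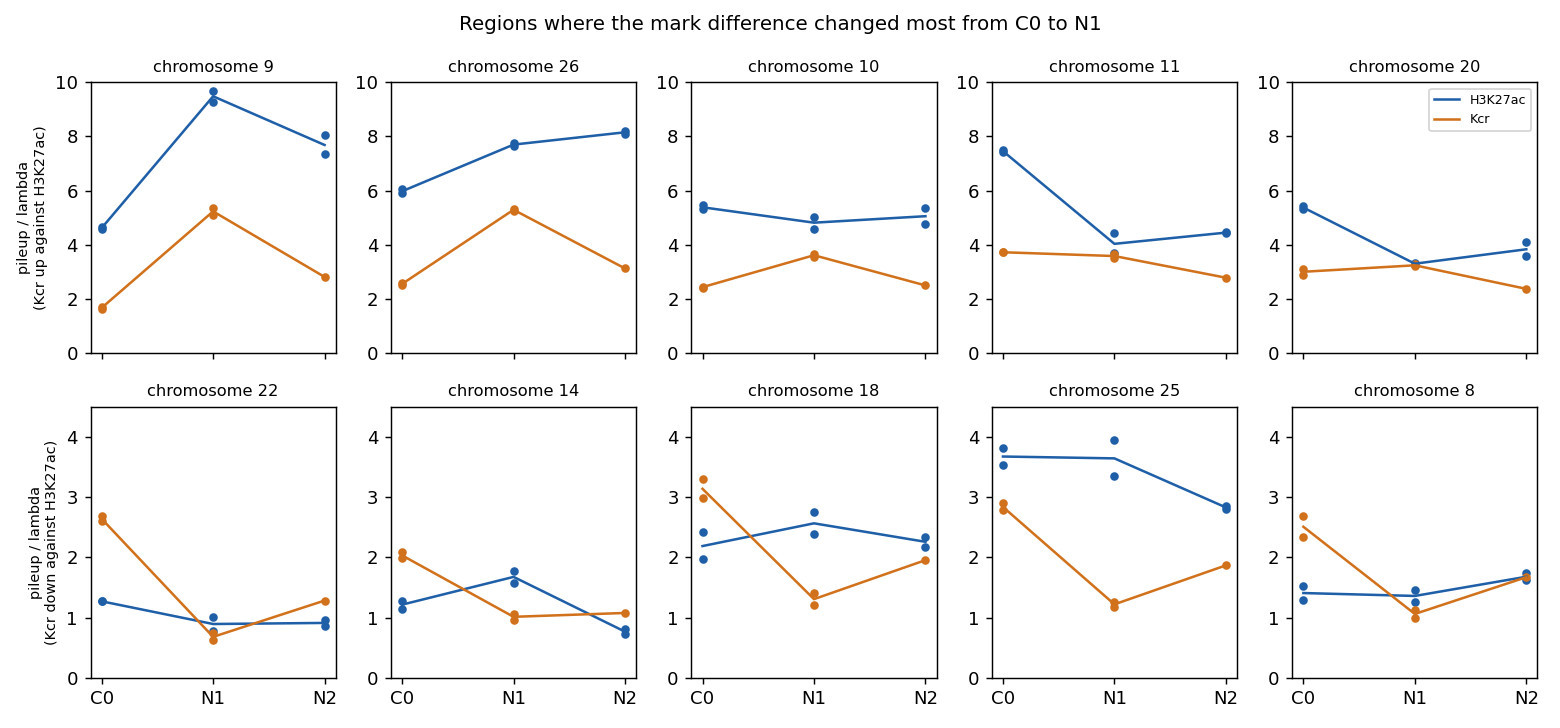
Ratio of pileup to lambda (y axis) in C0, N1 and N2 (x axis) for H3K27ac (blue) and Kcr (orange), with points for libraries and lines through the means, at the 5 regions that moved most toward Kcr (top) and the 5 that moved most toward H3K27ac (bottom) from C0 to N1. At chromosomes 9 and 26 Kcr peaks in N1 at 5.10 to 5.36, and in each lower panel Kcr has its lowest level in N1. The median Kcr ratio over all regions is lowest in N1 too, at 1.69 against 2.54 in C0 and 1.85 in N2.

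Regions where the marks parted were spread over all 30 chromosomes. The share called higher on the common scale ran from 10.5% on chromosome 30 to 30.1% on chromosome 9, and the share called lower from 3.75% on chromosome 29 to 11.1% on chromosome 22. With quantile normalisation the order was another one, with higher calls from 2.14% on chromosome 19 to 13.3% on chromosome 1, and at 7.52% on chromosome 9 against 7.42% of all regions. By width, 12.3% of the 537 regions under 1 kb were called higher and 26.5% of the 479 regions of 12 kb or more, while lower calls made up 4.84% and 7.10%. The median common-scale difference was 0.16 in the former and 0.12 in the latter, so that more higher calls did not go with a larger difference. With quantile normalisation the wide regions were called lower more often than higher, at 12.5% against 5.85%. Regions within 50 kb of the outermost region edge of their chromosome were called lower in 9.41% of 489 cases, against 7.21% of the 3314 others, and with quantile normalisation in 9.61% against 8.18%.

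H3K36me2 in N1 was not used in either scale of the comparison. Of the 1901 regions with H3K36me2 below its median, 204 (10.7%) were called lower in Kcr, and of the 1902 others 81 (4.26%). With quantile normalisation these shares were 9.78% and 6.94%. Regions with less H3K36me2 thus held more calls of relatively low Kcr under both scalings, to an unequal extent. Calls of relatively high Kcr made up 18.5% of the regions below the median and 22.0% of the others on the common scale. With quantile normalisation they made up 8.36% and 6.47%, so that regions with less H3K36me2 held more calls in both directions there.

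Adjacent regions could part in opposite directions. Of 3349 neighbouring pairs of regions within 5 kb of each other, 139 were both called higher and 22 both called lower on the common scale, and in 77 the calls were opposite, 18 of them with quantile normalisation as well. From the shares called over all regions alone, calls placed without regard to neighbours would give about 137, 19 and 101 such pairs. The counts of like calls lay near these values and that of opposite calls under them, with no test of the difference. The following examples were chosen after their values were seen. On chromosome 15, the region from 359281 to 369167 had N1 ratios of 3.46 and 3.47 for H3K27ac and 1.67 and 1.80 for Kcr, and its neighbour from 369702 to 390798, 535 bp away, had 3.79 and 3.99 against 3.12 and 3.02. H3K27ac was thus at a like level in both, and Kcr was not.

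On chromosome 10, the region from 1113314 to 1115577 had 3.02 and 3.09 for H3K27ac and 1.47 and 1.30 for Kcr. The named region from 1118099 to 1119314, 2522 bp further on, had 2.43 and 2.39 against 2.45 and 2.47. The neighbour with more H3K27ac therefore had less Kcr, with common-scale differences of -0.73 ± 0.10 and 0.68 ± 0.13 (SE). On chromosome 5 a region from 479304 to 482115 had 2.06 and 1.93 against 1.82 and 1.89, and the next one, 72 bp away and ending at 487451, had 1.32 and 1.39 against 0.730 and 0.702. At the latter Kcr was under background and H3K27ac above it. The pair on chromosome 11 with the widest difference rested in part on a weak region (104907 to 106235) whose H3K27ac libraries were unlike each other, at 1.31 and 0.754.

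**Figure D5:**
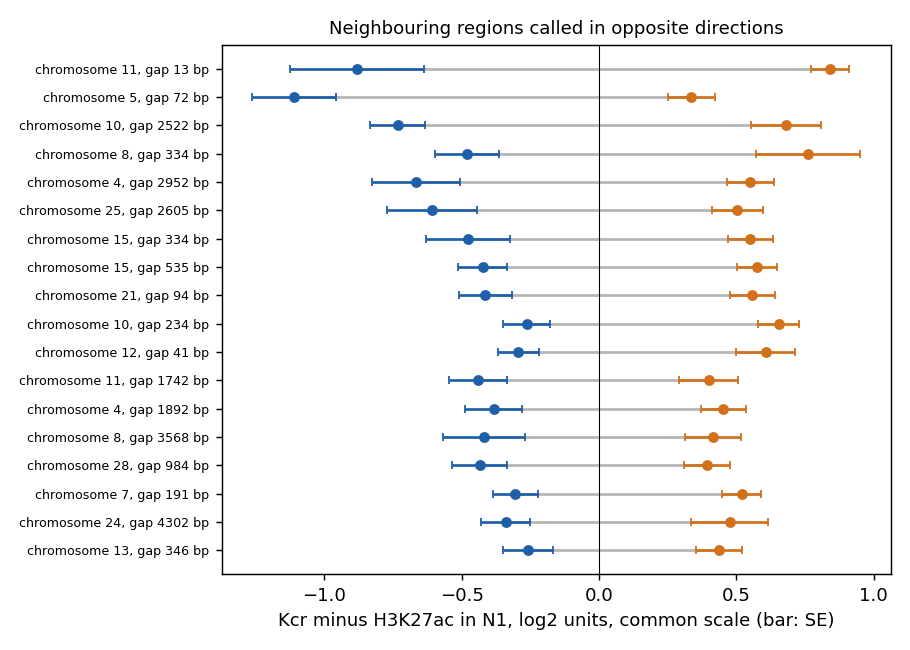
Difference of Kcr minus H3K27ac in N1 on the common scale (x axis, rescaled log2 units, bars are SE). Points are both regions of the 18 neighbouring pairs that were called in opposite directions on the common scale and with quantile normalisation. A grey line joins each pair, with the gap between its regions in bp. Blue points are regions with relatively low Kcr and orange points those with relatively high Kcr, and the gaps run from 13 to 4302 bp.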

How the data were processed

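ChIP-seq libraries of H3K27ac and Kcr were compared per region. Per the study's methods and the submitters' notes, the reads went through Trim Galore, BWA, Picard for duplicates, deepTools and MACS2 (broad peaks, against input). Not given in the sources used here are tool versions, the genome build, the way regions were merged and whether starts count from 0 or 1. What the authors deposited is a signal of coverage (pileup) and a local background (lambda) per library and region, and the same values stand in 9 tables. Coverage is not a count of reads per region, so no count test was run. Pileups were whole multiples of 1 step per library, within 0.05 of a step, for 100% of the regions. The per-library scores, fold changes, p-values and status columns of the authors' own comparisons were not used, nor were 36 columns of 12 libraries outside the labels. Regions were not assigned to genes, since no annotation of the nuclear genome was used here.

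Enrichment was log2(pileup + 0.5) minus log2(lambda + 0.5). The ratio of a library is pileup over lambda, and mean ratios were taken on the log scale with the 0.5 added. For the common scale each library was set to the mean of the medians and of the SDs of the 4 N1 libraries. Limma-trend (limma 3.58.1, R 4.3.3) was fitted to the 11 distinct H3K27ac and Kcr libraries in 6 groups, with 5 residual degrees of freedom, and p-values were adjusted by Benjamini-Hochberg over all regions. The Kcr N2 libraries held identical values and entered once. The fit was tested on simulated data. Named regions were up to 10 in each direction with the largest common-scale N1 difference among called regions with the same sign on both scales, no overlap between libraries and a mean ratio of at least 2 for 1 mark, and the 5 in each direction with the largest called change from C0 to N1, given a mean ratio of at least 2 for 1 mark in either condition. A further rule, a ratio of at least 2 for one mark and under 1 for the other in both libraries, was met by 0 regions. Alternatives were other pseudocounts, a filter on low ratios, pileup alone, quantile normalisation, equal median absolute deviation, equal medians alone, the N1 libraries alone, a replicate block, no trend, and each library left out. The regions, rules and tests were chosen with earlier results of these data known.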

Additional observations from a re-analysis of the deposited data

Results flagged for a closer look

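The difference between the marks was itself found to change with condition by a test of the interaction of mark and condition, for 910 regions from C0 to N1 and for 1248 regions from N1 to N2 on the common scale. These counts were 425 and 175 with quantile normalisation.

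Among the named regions, the same test from C0 to N1 gave changes in rescaled log2 units on the common scale. Changes toward Kcr were 1.74 on chromosome 9 (107001 to 115486), 1.74 on chromosome 26 and 1.47 on chromosome 10 (1236861 to 1244004). They were 1.46 on chromosome 11 (99710 to 104894) and 1.42 on chromosome 20 (366312 to 380456). Changes toward H3K27ac were -1.50 on chromosome 22, -1.15 on chromosome 14, -1.07 on chromosome 18, -0.95 on chromosome 25 (594033 to 596220) and -0.93 on chromosome 8. The highest adjusted p among the 10 regions was 0.00172 by limma.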

How the results depend on the processing

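The direction and call of the named regions were kept in 247 of 247 alternative values of the N1 difference and in 148 of 148 of the change from C0 to N1. These regions were chosen as called and with the largest values, so that keeping their calls was in part built in. The enrichment scale was not among these alternatives. There, 1 of the 9 named regions with relatively high Kcr was called in N1, and 10 of the 10 with relatively low Kcr. Counts depended on the scaling of the libraries. With quantile normalisation, the N1 difference on the common scale was called in 600 regions (282 higher, 318 lower) in place of 1054, its change from C0 to N1 in 425 in place of 910, and its change from N1 to N2 in 175 in place of 1248. Equal median absolute deviation gave 1557 for the change from C0 to N1. On the enrichment scale, equal medians with the spread kept gave 2017 regions (1381 higher, 636 lower) in place of 2960, which turned the balance of the calls. Leaving out each library in turn gave 2645 to 2807 regions on the enrichment scale, 566 to 1032 on the common scale, 503 to 977 for the change from C0 to N1 and 916 to 1302 for the change from N1 to N2. With 1 library left, a group was assumed to vary like the others. Replicate numbers gave no sign of pairing, since the deviations of H3K27ac and Kcr between libraries 1 and 2 correlated with r = 0.0245. A replicate block gave 2916 regions on the enrichment scale, 978 on the common scale and 1099 for the change from C0 to N1.

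The 2 libraries per group limit these counts, differences under 0.205 were not called on the common scale, and the marks cannot be compared in absolute amount across antibodies.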
